A study of Mus musculus with 48 samples.

Results

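A set of 10 liver genes that depend in the male mouse on pulses of growth hormone was followed through 24 livers: Hsd3b5, Elovl3, Cyp4a12a, Cyp2d9, Cyp7b1, Slco1a1, C6, Selenbp2, Serpina4-ps1 and Ugt2b38. They were chosen by name, because earlier results of these arrays had shown them lower under dietary restriction (DR). On the array 17097 genes had a probe set of their own. Of the 10 genes, 9 had at least 1 probe set annotated to that gene alone, 13 probe sets of the 45141 on the array, and where a gene had several, the brightest on average across all 24 arrays was used. Ugt2b38 had no such probe set and was read from a second set of values, made per gene, in which Selenbp2 was not found. Since restricted against unrestricted mice is the contrast that chose the genes, those differences are described below without a test. The differences between genotypes under the same feeding and those of the rapamycin-fed mice were tested. These tested comparisons share mice with the contrast that chose the genes, so they are not independent of that choice.

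Liver RNA was taken at 11 weeks of age, with 1 array per mouse, from F1 C57BL6J/FVB hybrids kept on AIN93G synthetic diet. Ercc1Δ/- mice, which carry a truncated Ercc1 allele over a null allele and so lack most activity of a nuclease of DNA repair, were fed ad libitum (Control, n = 5), fed the same diet with 14 ppm of encapsulated rapamycin (Rapa 14 ppm, n = 4) or given 30% less food (DR 30%, n = 5). Their WT littermates ate ad libitum (WT-Control, n = 5) or had 30% less food (WT-DR, n = 5). Food was reduced stepwise from 7 weeks of age to the full restriction from 9 weeks and was handed out just before the dark period, and rapamycin was started at one of a pair of ages which the labels do not tie to these mice. The Ercc1 alleles are in the germ line, so every cell of the mutant carries them, and mutant and wild type thus differ throughout the body and not in the liver alone.

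In the male rodent, the pituitary releases growth hormone in pulses with near-silent gaps, while release in the female is nearly continuous. Each pulse activates the transcription factor STAT5B in hepatocytes through the growth hormone receptor and JAK2, and this on-and-off rhythm keeps a set of liver genes high in males, among them steroid and fatty acid hydroxylases, transporters and secreted proteins. When the pulses are lost or become continuous these genes fall and the female-biased genes rise. In bulk liver RNA, fewer expressing cells and less RNA per cell cannot be told apart.

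All values are RMA values on the log2 scale, where a step of 1 is a doubling. The median over all probe sets was 4.16 to 4.21 per array, and a value near or below it is close to background, so that the size of a fold change which rests on it is uncertain. Within a group, the Pearson correlation between arrays was 0.991 to 0.996. The labels do not give the sex of the mice. In all 24 livers the Y-linked Eif2s3y lay at 9.65 to 10.24, with Xist near background at 3.68 to 4.35. The Y-linked Kdm5d and Uty were above the array median in 24 of 24 as well, so by these genes all 24 mice read as male. The 8 hepatocyte markers were above the array median in every mouse, with list means between 13.37 and 13.60, and the adipocyte markers Adipoq and Lep were below it in all 24. Of 4 markers of exocrine pancreas, Prss1 and Cpa1 were below the median in every mouse, Amy2a5 was above it in 9 of 24 and Cela1 lay at 8.06 to 10.69, above it in 24 of 24, and the part of pancreatic RNA in the results was not tested. The mean of the 43 spike-in probe sets, which read RNA added during labelling, was 7.43 ± 0.04 (SD, n = 5) in WT-Control and 7.28 ± 0.03 (n = 4) in Rapa 14 ppm, the highest and the lowest group mean. In the records of these probe set values the rapamycin arrays also lack a mark of renewed analysis that the titles of the other groups carry, whereas the records of the values per gene carry it for them too, and the part of either in the rapamycin results was not tested.

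To show the DNA at the promoters of these genes, windows of 250 bases up to the listed start site were taken from RefSeq on the build GRCm38.p6, which listed 6 of the 10 genes (Hsd3b5, Cyp2d9, Slco1a1, C6, Selenbp2 and Ugt2b38). The motifs searched, on both strands, were TTCNNNGAA, the core that STAT5 binds, ATCGAT, shared by the factors ONECUT1 and CUX2, and AGGTCA, a hexamer bound by many nuclear receptors, which was added after the sequences had been seen. Neither the first nor the second was found in any of the 6 windows, and over all 32851 windows of this length they were found in 7.02% and 0.7275%. The hexamer was found in 3 of the 6 windows, beside 14.02% of all windows. Because it was picked with these same sequences in view, nothing is read from that count. Those 3 windows are printed with the hexamer in capitals on whichever strand it lies, together with that of Hsd3b5, which holds none and belongs to the gene with the largest difference on restriction in WT. All 4 sequences run 5′ to 3′ on the strand of the gene. They are Slco1a1 (chr6:141946963-141947212, minus strand, hexamers starting at positions -134 and -24 from the start site), C6 (chr15:4726960-4727209, plus strand, at -40), Ugt2b38 (chr5:87424204-87424453, minus strand, at -25) and Hsd3b5 (chr3:98645535-98645784, minus strand). RefSeq places the start of the C6 gene itself at base 4727067, so that the latter stretch of its window, with the hexamer, lies within the annotated gene. A match is a run of letters and not a shown binding site.
Slco1a1: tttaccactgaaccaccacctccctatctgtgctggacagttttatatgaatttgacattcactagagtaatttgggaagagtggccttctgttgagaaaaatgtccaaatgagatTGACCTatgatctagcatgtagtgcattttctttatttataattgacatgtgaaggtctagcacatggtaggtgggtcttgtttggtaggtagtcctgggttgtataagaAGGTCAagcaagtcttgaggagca
C6: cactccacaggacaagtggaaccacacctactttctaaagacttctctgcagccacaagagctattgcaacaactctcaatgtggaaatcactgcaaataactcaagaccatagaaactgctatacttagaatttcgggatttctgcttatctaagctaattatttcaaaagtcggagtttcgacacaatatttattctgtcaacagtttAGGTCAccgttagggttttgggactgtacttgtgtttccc
Ugt2b38: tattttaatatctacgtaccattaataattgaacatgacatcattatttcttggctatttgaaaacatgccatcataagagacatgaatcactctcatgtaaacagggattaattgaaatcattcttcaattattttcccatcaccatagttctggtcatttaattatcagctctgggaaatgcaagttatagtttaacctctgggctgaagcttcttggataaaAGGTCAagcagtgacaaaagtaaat
Hsd3b5: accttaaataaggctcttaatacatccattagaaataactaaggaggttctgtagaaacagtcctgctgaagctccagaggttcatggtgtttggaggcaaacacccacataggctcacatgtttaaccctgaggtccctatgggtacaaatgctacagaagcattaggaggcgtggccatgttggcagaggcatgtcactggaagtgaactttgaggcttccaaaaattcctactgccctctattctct

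Under restriction, 8 of the 9 genes with a probe set lay in all 5 WT-DR mice below all 5 WT-Control mice, and the same 8 lay in all 5 DR 30% mice below all 5 Control mice. Selenbp2 was the exception in both genotypes. At an FDR under 0.05 and a fold of 1.5 or more in limma, 8 of 9 lay past the thresholds in each genotype, beside 2.63% of all probe sets lower in WT and 0.948% in the mutant, and since this contrast chose the genes nothing is read from these counts. The share of all probe sets whose mice did not overlap in that direction was 6.61% in WT and 3.14% in the mutant. In 5 of the 9 genes, Hsd3b5, Elovl3, Cyp4a12a, Cyp7b1 and Slco1a1, the highest of the 10 restricted mice lay below the lowest of all 14 unrestricted mice, rapamycin-fed mice included. For Cyp7b1 these 2 mice were close, at 11.19 and 11.27. The share of all probe sets with this pooled split was not counted, and nothing is read from this count either.

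**Figure D1:**
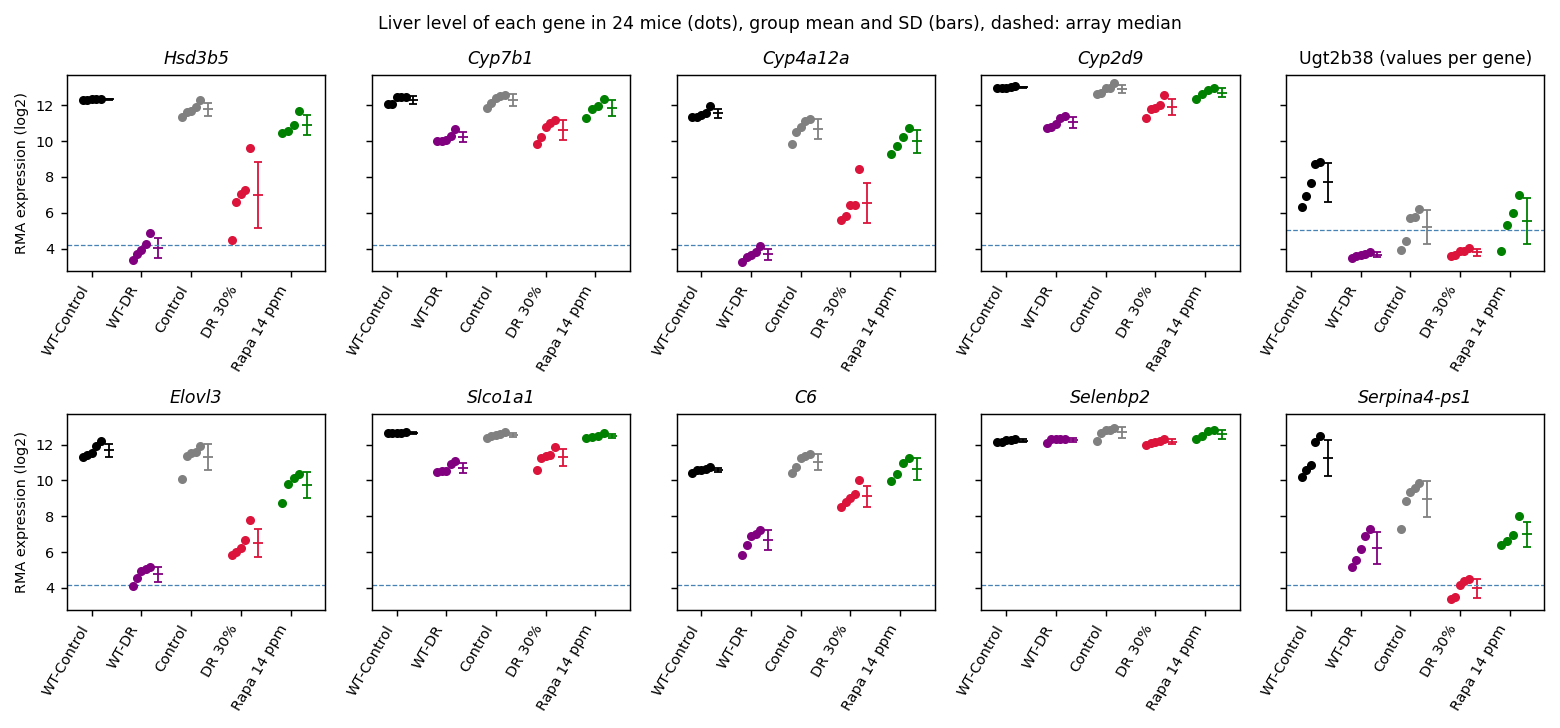
RMA expression (log2) of the 10 genes in each of the 24 mice (dots) by group, with group mean and SD beside them and the array median as a dashed line. For Hsd3b5 and Cyp4a12a the WT-DR mice reach the array median (4.16 to 4.21), whereas the 10 restricted livers of Cyp2d9 stay at or above 10.74. Selenbp2 is level between the WT groups, with means of 12.67 in Control and 12.15 in DR 30%.

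Among the enzymes of steroid metabolism, Hsd3b5, a liver-restricted member of the hydroxysteroid dehydrogenase family that inactivates steroids, stood at 12.35, 12.28, 12.33, 12.37 and 12.31 in WT-Control mice 401 to 405 and at 4.85, 4.25, 3.73, 3.92 and 3.37 in WT-DR mice 421 to 425. The unrestricted mice lay close together, and 3 of the 5 restricted mice were below the array median. In the mutant, Control mice 321, 323, 325, 326 and 327 had 11.34, 12.27, 11.63, 11.91 and 11.69, and DR 30% mice 362, 365, 366, 368 and 369 had 4.47, 7.03, 6.59, 9.61 and 7.24. The restricted mutants were thus spread widely, from near background in mouse 362 to just below the rapamycin-fed mice in mouse 368. Rapa 14 ppm mice 535 to 538 had 10.90, 10.48, 10.57 and 11.70, overlapping with Control. The difference on restriction was -8.30 (SE 0.53) in WT and -4.78 (0.53) in the mutant, and the former is of uncertain size because its lower end is at background.

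Cyp4a12a, a hydroxylase of arachidonic acid and other fatty acids, had 11.37, 11.59, 11.95, 11.46 and 11.35 in WT-Control and 3.79, 3.27, 3.53, 4.17 and 3.62 in WT-DR, all 5 of the latter below the array median. Control mice had 9.82, 11.11, 10.79, 11.21 and 10.51, each below every WT-Control mouse. DR 30% mice had 5.80, 6.45, 5.59, 8.43 and 6.42, each above every WT-DR mouse, and mouse 368 was again the highest. Rapamycin-fed mice, at 10.73, 9.73, 9.26 and 10.23, lay within or below the Control range. The difference on restriction was -7.87 (SE 0.38) in WT and -4.15 (0.38) in the mutant.

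Elovl3, an elongase that makes very long saturated and monounsaturated fatty acids, had 11.55, 11.29, 11.93, 11.42 and 12.18 in WT-Control and 4.93, 5.05, 4.54, 5.16 and 4.11 in WT-DR, where mouse 425 was below the array median. The corresponding mutants had 11.54, 11.91, 11.36, 11.58 and 10.06 (Control) and 6.66, 5.99, 5.85, 7.79 and 6.22 (DR 30%). Control mouse 327 lay below the range of WT-Control and the other 4 within it, while all restricted mutants were above all restricted WT mice. Rapa 14 ppm mice had 10.34, 8.74, 9.80 and 10.15, of which only mice 535 and 538 exceeded the lowest Control mouse. Restriction went with a difference of -6.92 (SE 0.36) in WT, with the lower end near background, and -4.79 (0.36) in the mutant.

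C6, a complement protein of the membrane attack complex, was the gene in which the genotypes stood farthest apart under restriction relative to the spread. WT-Control mice had 10.58, 10.57, 10.64, 10.42 and 10.72 and WT-DR mice had 6.41, 7.22, 6.90, 6.99 and 5.85. Control mice had 10.40, 11.37, 11.27, 11.45 and 10.74 and DR 30% mice had 8.49, 9.25, 8.99, 10.03 and 8.79. Every restricted mutant was more than 1 log2 unit above the highest restricted WT mouse, whereas the unrestricted groups overlapped. In Rapa 14 ppm mice C6 was 11.27, 9.94, 10.38 and 10.96, and its lowest mouse, 536, lay below the highest DR 30% mouse. Restriction differences were -3.91 (SE 0.28) in WT and -1.93 (0.28) in the mutant.

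Cyp2d9, a male-specific steroid hydroxylase, Cyp7b1, the oxysterol hydroxylase of the alternative bile acid pathway, and Slco1a1, a sinusoidal uptake transporter of organic anions, kept high values under restriction. Cyp2d9 had a mean of 13.00 ± 0.05 (SD, n = 5) in WT-Control, 11.04 ± 0.30 in WT-DR, 12.90 ± 0.24 in Control, 11.90 ± 0.47 in DR 30% and 12.70 ± 0.26 (n = 4) in Rapa 14 ppm. Its WT-DR mice, from 421 to 425, had 10.80, 10.74, 11.31, 11.41 and 10.94, and its DR 30% mice had 11.29, 11.79, 11.99, 12.59 and 11.82. Only mouse 362 of the restricted mutants fell within the range of restricted WT mice. Slco1a1 had group means, in the same order, of 12.64 ± 0.04, 10.71 ± 0.29, 12.54 ± 0.12, 11.28 ± 0.46 and 12.49 ± 0.12. Its restricted mice were 10.92, 11.11, 10.51, 10.44 and 10.54 in WT and 10.56, 11.22, 11.41, 11.84 and 11.36 in the mutant, where again mouse 362 alone lay among the WT values. Cyp7b1 had means of 12.31 ± 0.22, 10.21 ± 0.27, 12.29 ± 0.31, 10.61 ± 0.57 and 11.84 ± 0.45, with DR 30% mice at 9.84, 11.19, 10.77, 11.02 and 10.22 below, within and above the WT-DR range of 10.02 to 10.66. Restriction differences in WT were -1.96 (SE 0.17) for Cyp2d9, -1.94 (0.15) for Slco1a1 and -2.10 (0.22) for Cyp7b1. In the mutant they were -1.01 (0.17), -1.26 (0.15) and -1.68 (0.22).

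Serpina4-ps1, a transcribed pseudogene of the serpin cluster, was lower in the mutant than in WT with and without restriction. WT-Control mice had 12.45, 10.88, 12.14, 10.57 and 10.18 and Control mice had 7.31, 9.38, 9.57, 9.84 and 8.84. WT-DR mice had 6.89, 7.28, 5.16, 5.54 and 6.20, and DR 30% mice had 3.40, 4.50, 3.47, 4.39 and 4.14. At this probe set no mutant reached the WT range on the same feeding, a position shared by 3.14% of all probe sets unrestricted and 3.61% restricted. At a second probe set of the gene the genotypes overlapped in either feeding. At the main probe set 3 of the 5 DR 30% mice were below the array median. Rapa 14 ppm mice had 8.00, 6.59, 6.41 and 6.97, so that 3 of the 4 lay below the lowest Control mouse and within the WT-DR range. The difference on restriction was -5.03 (SE 0.49) in WT and -5.01 (0.49) in the mutant, the latter with its lower end at background. The second probe set gave -5.29 (0.59) and -4.52 (0.59).

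Selenbp2, a cytosolic selenium-binding protein of the liver, went against the label in WT. It had 12.24, 12.16, 12.30, 12.26 and 12.12 in WT-Control and 12.32, 12.08, 12.29, 12.31 and 12.33 in WT-DR, a difference of 0.05 (SE 0.11, 95% interval -0.18 to 0.28). In the mutant it had 12.18, 12.94, 12.80, 12.81 and 12.64 in Control, 12.22, 12.32, 12.11, 12.14 and 11.98 in DR 30% and 12.78, 12.28, 12.45 and 12.76 in Rapa 14 ppm. Control mouse 321 was the only one of its group within the range of the restricted mutants. The restriction difference in the mutant was -0.52 (SE 0.11), which is less than 1.5-fold. The suffix of its probe set marks probes that can also bind a related transcript, so a part of this signal may come from Selenbp1 or another relative, which was not tested.

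Ugt2b38, a glucuronosyltransferase that couples steroids and xenobiotics to glucuronic acid, was the only gene read from the values per gene, where the array median was 4.99 to 5.10. WT-Control mice had 8.71, 6.93, 8.84, 7.66 and 6.35, and Control mice had 3.94, 6.19, 5.69, 5.79 and 4.44. All 5 Control mice lay below all 5 WT-Control mice, as in 4.39% of all genes in these values, and 2 of them lay below the array median. WT-DR mice ran from 3.47 to 3.84 and DR 30% mice from 3.57 to 4.03, all 10 below the median, so that neither their order nor the size of the fall can be read. Rapa 14 ppm mice had 6.99, 3.90, 5.97 and 5.31, covering the whole Control range.

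In 6 of the genes (Hsd3b5, Elovl3, Cyp4a12a, Cyp2d9, Cyp7b1 and Slco1a1) the group means had the same order, from WT-Control over Control, Rapa 14 ppm and DR 30% to WT-DR. Neighbours in that order were not all apart. Control and Rapa 14 ppm overlapped in all 6, and WT-Control and Control were apart only in Hsd3b5 and Cyp4a12a. For Hsd3b5 the latter groups overlapped in the values per gene. DR 30% and WT-DR were apart only in Elovl3 and Cyp4a12a. C6 had the order Control, Rapa 14 ppm and WT-Control at the top, with these groups overlapping. In Serpina4-ps1 the restricted groups changed places, with DR 30% below WT-DR. The SD over mice was larger in Control than in WT-Control for 9 of 9 genes, for Serpina4-ps1 only just (1.008 and 0.998). It was larger in DR 30% than in WT-DR for 8 of 9, with Serpina4-ps1 as the exception. The share of all probe sets with a larger SD in the mutant was not counted, and nothing is read from these counts.

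**Figure D2:**
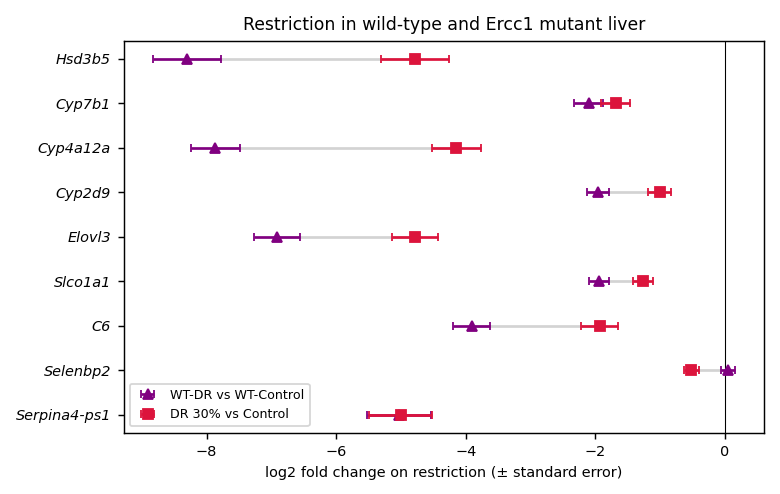
Log2 fold change on restriction (± standard error of the model) in WT mice (triangles) and Ercc1 mutant mice (squares) for the 9 genes with a probe set, with grey lines joining both values of a gene. Hsd3b5, Cyp4a12a, Elovl3 and C6 lie between 1.98 and 3.72 units closer to 0 in the mutant, while the symbols of Serpina4-ps1 coincide near -5.

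The restriction difference was smaller in size in the mutant for 8 of the 9 genes, although in Serpina4-ps1 by only 0.02 (SE 0.69). As a description without a test, the mutant difference less the WT difference was 3.72 (SE 0.53) for Cyp4a12a, 3.52 (0.75) for Hsd3b5, 2.13 (0.51) for Elovl3, 1.98 (0.40) for C6, 0.95 (0.25) for Cyp2d9, 0.68 (0.22) for Slco1a1 and 0.42 (0.31) for Cyp7b1. The first pair rests on WT-DR values at background and is therefore uncertain in size. Selenbp2 had -0.57 (0.16). Over the 9 genes the median was 0.95. All probe sets, with a median of -0.0014, hold rises and falls alike, whereas these genes were chosen as lower, so nothing is read from that distance. The 17 other male-biased genes listed below had a median of 0.50, with 14 positive and 3 negative. The 17 female-biased genes had -0.77, with 7 positive and 10 negative. How many of all probe sets lower in WT had a smaller difference in the mutant was not counted.

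Whether unrestricted mutants already differed from WT was tested with limma over all probe sets. Serpina4-ps1 was lower in Control than in WT-Control by a factor of 4.79 (log2 -2.26, SE 0.49, adjusted p = 0.00467), and its second probe set was lower as well (-2.12, SE 0.59, adjusted p = 0.0275). It was the only one of the 9 genes called at these thresholds, beside 2.52% of all probe sets, 0.888% of them lower. Ugt2b38 was lower in the values per gene (-2.49, SE 0.49, limma adjusted p = 0.00135), where 1.17% of all genes were lower. Selenbp2 differed by 0.46 (SE 0.11, adjusted p = 0.0130), under the fold threshold. Cyp4a12a (-0.86, SE 0.38, adjusted p = 0.192) and Hsd3b5 (-0.56, SE 0.53, adjusted p = 0.607) did not pass although their mice did not overlap, a separation that 3.14% of all probe sets showed in that direction. For Hsd3b5 the gap was narrow, with the highest Control mouse at 12.27 and the lowest WT-Control mouse at 12.28. In the values per gene its mice overlapped. For Elovl3, Cyp7b1, Cyp2d9, Slco1a1 and C6 the difference was between -0.38 and 0.46, with adjusted p from 0.382 to 0.974. The call for Cyp4a12a turned on the spread that other groups lent to the fit: without DR 30% mouse 368 its adjusted p was 0.0497. Other measures moved in the same comparison: the list mean of 6 stellate cell markers was 7.25 to 7.33 in Control mice and 6.98 to 7.10 in WT-Control mice, with none of 6 called and Col1a1 below the array median in every mouse, and that of the 8 hepatocyte markers was 13.37 to 13.41 against 13.50 to 13.60, with 1 of 8 called lower. The 3' less the 5' signal of Gapdh, a measure of RNA integrity, was 0.91 ± 0.28 (SD, n = 5) in Control and 0.64 ± 0.07 in WT-Control with overlapping ranges, and the part of these in the differences was not tested.

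Between restricted mice, the mutant was higher than WT for 5 of the 9 genes and lower for 1, in a comparison whose mice are the restricted mice of the contrast that chose the genes. C6 was higher in DR 30% than in WT-DR by a factor of 5.41 (log2 2.44, SE 0.28, adjusted p = 3.3e-06), Cyp4a12a by 7.28 (2.86, SE 0.38, adjusted p = 1.8e-05) and Hsd3b5 by 7.79 (2.96, SE 0.53, adjusted p = 4.9e-04). Elovl3 (3.35-fold, adjusted p = 0.00181) and Cyp2d9 (1.81-fold, adjusted p = 0.00166) were higher too. Serpina4-ps1 was lower by a factor of 4.7 (log2 -2.23, SE 0.49, adjusted p = 0.00324), a call that its second probe set did not share (-1.35, SE 0.59, adjusted p = 0.149). These 6 calls stand beside 3.82% of all probe sets called, 2.60% higher and 1.22% lower. The mice of both groups were apart for Elovl3, Cyp4a12a and C6 among the higher genes, beside 5.18% of all probe sets, and overlapped for Hsd3b5 and Cyp2d9.

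Slco1a1 was at 1.49-fold (log2 0.58, SE 0.15, adjusted p = 0.0153) just under the fold threshold in this comparison, while its second probe set passed it (0.63, SE 0.16, adjusted p = 0.00998). Without mouse 362 the main probe set gave 0.75 (SE 0.12, adjusted p = 1.95e-04), and it also passed without mouse 365 of DR 30% or mouse 421 or 422 of WT-DR. For Cyp7b1 the difference was 0.40 (95% interval -0.06 to 0.86, adjusted p = 0.280) and for Selenbp2 it was -0.11 (-0.34 to 0.12, adjusted p = 0.600). Ugt2b38 gave 0.15 (SE 0.49, adjusted p = 0.868) with all mice below the array median. The size for Hsd3b5 and Cyp4a12a is uncertain for the same reason on the WT side. The 7 macrophage and Kupffer cell markers moved in the same comparison, 5 of 7 higher in DR 30%, with list means of 7.51 to 8.26 per mouse against 6.65 to 7.26 in WT-DR. The 8 hepatocyte markers had list means of 13.37 to 13.47 against 13.51 to 13.57, with none of 8 called, and the part of either list in the differences of these genes was not tested.

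**Figure D3:**
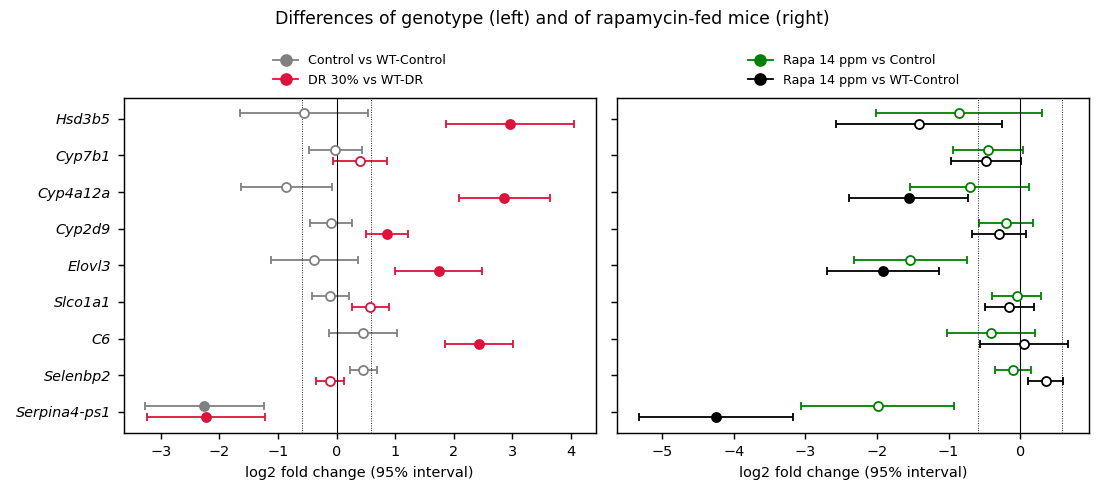
Log2 fold change with its 95% interval for 9 genes in both genotype comparisons (left panel) and both rapamycin comparisons (right panel). Filled symbols are past both thresholds (dotted lines mark 1.5-fold), which 6 of 9 genes reached in DR 30% vs WT-DR, 1 in Control vs WT-Control, 3 in Rapa 14 ppm vs WT-Control and 0 in Rapa 14 ppm vs Control.

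Rapamycin-fed mutants were compared with Control mutants. These groups also differ in the mark of the records and in the spike-in means, 7.24 to 7.32 per mouse in Rapa 14 ppm and 7.35 to 7.49 in Control. The part of these beside that of the drug was not tested. In Rapa 14 ppm vs Control none of the 9 genes was called in limma, beside 0.0310% of all probe sets. At an unadjusted p under 0.05 were 2 of 9 genes, beside 4360 of all 45141 probe sets. The 2 genes were Serpina4-ps1 (-1.99, SE 0.52, adjusted p = 0.174) and Elovl3 (-1.53, SE 0.38, adjusted p = 0.142). The latter turned on Control mouse 327, without which Elovl3 gave -1.84 (SE 0.35) and passed with an adjusted p = 0.0189. All 9 differences were negative, from -0.05 for Slco1a1 to -1.99, with a median of -0.45 beside -0.01 over all probe sets. Because the Control mice took part in the choice of the genes, nothing is read from this shared sign. The 95% intervals reached -2.02 for Hsd3b5, -1.53 for Cyp4a12a and -1.02 for C6. Ugt2b38 differed by 0.33 (SE 0.52, adjusted p = 0.869) in the values per gene.

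The same rapamycin-fed mice were then set against WT-Control, so that both comparisons share them. Serpina4-ps1 was lower by 4.25 (log2, SE 0.52, adjusted p = 7.8e-06), Elovl3 by 1.92 (SE 0.38, adjusted p = 0.00170) and Cyp4a12a by 1.56 (SE 0.40, adjusted p = 0.0138), 3 of 9 genes called beside 3.51% of all probe sets, of which 1.21% were lower. Ugt2b38 was lower by 2.16 in the values per gene (SE 0.52, adjusted p = 0.00627), beside 1.51% of genes. In Hsd3b5 all 4 rapamycin-fed mice lay below all 5 WT-Control mice at a difference of -1.42 (SE 0.56, adjusted p = 0.113), a position shared by 6.09% of all probe sets. The call for Cyp4a12a was lost without mouse 537 (-1.32, adjusted p = 0.0652), and that for Hsd3b5 was gained without DR 30% mouse 362 or 368 (adjusted p = 0.0283 and 0.0237). The remaining 5 genes differed by -0.47 to 0.35.

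Against DR 30%, a comparison that, like the one that chose the genes, sets unrestricted against restricted mice and is only described, 8 of 9 genes were past the thresholds in Rapa 14 ppm, all higher, beside 0.704% of all probe sets higher. The differences ran from 0.81 (SE 0.18) for Cyp2d9 to 3.92 (0.56) for Hsd3b5, and Selenbp2 had 0.42 (0.12). The mice of both groups were apart in 6 of the 9 genes, beside 3.57% of all probe sets, and overlapped in Cyp2d9, C6 and Selenbp2.

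**Figure D4:**
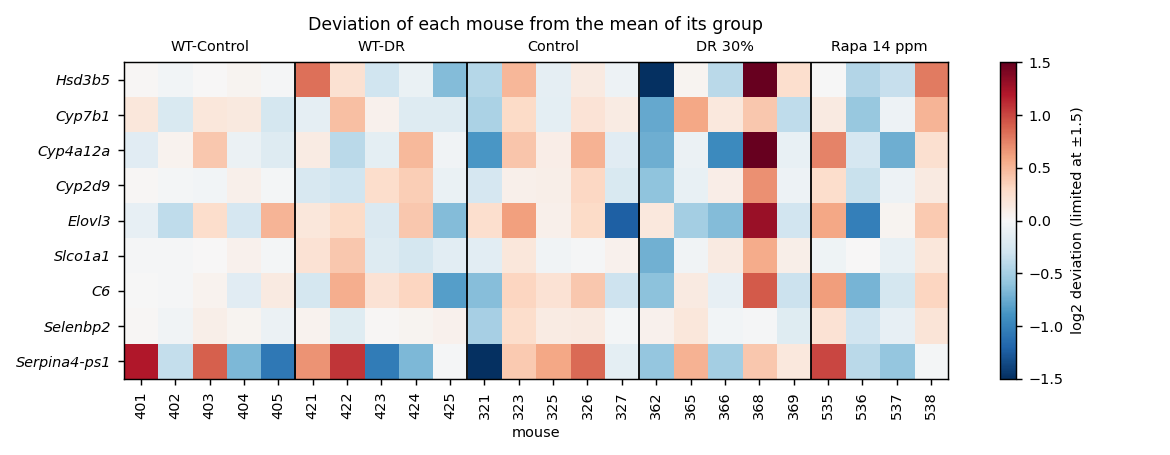
Deviation of each of the 24 mice (columns) from the mean of its group for 9 genes (rows), in log2 units, with colours limited at ±1.5. Control mouse 321 and DR 30% mouse 362 are low and DR 30% mouse 368 is high across most rows.

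Within the mutant groups some mice were the lowest or the highest of their group in most of the 9 genes. Control mouse 321 was the lowest of its group in 8 of 9 genes, with a median deviation of -0.47 from the group mean. Among restricted mutants, mouse 362 was the lowest in 6 genes (median deviation -0.62) and mouse 368 the highest in 6 (0.69). In Rapa 14 ppm the lowest was mouse 536 in 6 genes and mouse 537 in the other 3, and the highest was mouse 535 in 6 and mouse 538 in 3. Their median deviations were -0.40 for mouse 536, -0.12 for 537, 0.27 for 535 and 0.24 for 538. In WT mice the median deviations ran from -0.05 to 0.09 in WT-Control and from -0.16 to 0.29 in WT-DR. WT-Control mouse 405 was the lowest of its group in 5 genes and the highest in 2. In WT-DR mouse 425 was the lowest in 4 genes, and mouse 422 the highest in 4 and the lowest in 3. The genes of a mouse share 1 RNA sample and 1 array, so they are not separate observations. How all probe sets of these mice deviated was not measured, and nothing particular to these genes is read from the counts.

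Outside these 10 genes, the profiles most like theirs were sought over the 24 mice, with the Pearson correlation to the mean of the 9 standardized profiles as the measure, over 10330 genes with a mean above the median. Slc22a7 (0.974), an organic anion transporter, led, followed by the complement gene C8b (0.972), the dehydrogenase Hsd3b2 (0.969), C8a (0.969), the aldehyde oxidase Aox3 (0.961), Cyp4v3 (0.959), Slc22a30 (0.958), the efflux transporter Abcg2 (0.957), Nudt7 (0.952) and Atp11a (0.951). The 9 genes themselves had 0.978 for Hsd3b5 and Cyp4a12a, 0.974 for Cyp7b1, 0.972 for Elovl3, 0.966 for Slco1a1, 0.960 for Cyp2d9, 0.941 for C6, 0.771 for Serpina4-ps1 and 0.538 for Selenbp2, each value including its own share of the mean. Slc22a7 had group means of 10.82 in WT-Control, 7.56 in WT-DR, 10.73 in Control, 8.62 in DR 30% and 10.67 in Rapa 14 ppm. The 24 mice fall into groups far apart, so these correlations mostly reflect differences between groups.

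Of the growth hormone pathway itself, 18 of 21 listed genes were measured, and none was called in Control vs WT-Control, beside 2.52% of all probe sets called. At an unadjusted p under 0.05 in limma were 8 of the 18, beside 9302 of all 45141 probe sets. Ghr, the receptor, was lower there by 0.39 (log2, SE 0.07, adjusted p = 0.0011), under the fold threshold, and Stat5b differed by 0.06 (SE 0.13, adjusted p = 0.836). Igf1, the circulating growth factor made under growth hormone, had -0.17 (SE 0.06, adjusted p = 0.082). Cish (1.45, SE 0.50, adjusted p = 0.0795) and Socs2 (1.74, SE 0.59, adjusted p = 0.0783), feedback inhibitors that STAT5 induces, and Bcl6 (-0.91, SE 0.66, adjusted p = 0.480), a repressor of female-biased genes in male liver, were not called. In WT restriction 1 gene was higher, Socs2 (2.34, SE 0.59, adjusted p = 0.00676), and 3 were lower: Ghr (-0.59, adjusted p = 4.4e-06), Igfals, which carries IGF1 in blood (-0.69, adjusted p = 0.00529), and Bcl6 (-2.69, SE 0.66, adjusted p = 0.00527). These 4 of 18 stand beside 6.04% of all probe sets. In DR 30% vs Control none of 18 was called, beside 2.44% of probe sets, and Ghr and Bcl6 differed by -0.49 and -1.42. There 5 of 18 had an unadjusted p under 0.05 in limma, beside 9907 of all 45141 probe sets. In DR 30% vs WT-DR the only call was Ptpn6, higher by 0.70, beside 3.82% of all probe sets. In Rapa 14 ppm vs Control there was none, beside 0.0310%. There 1 of 18 had an unadjusted p under 0.05 in limma, beside 4360 of all 45141 probe sets.

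**Figure D5:**
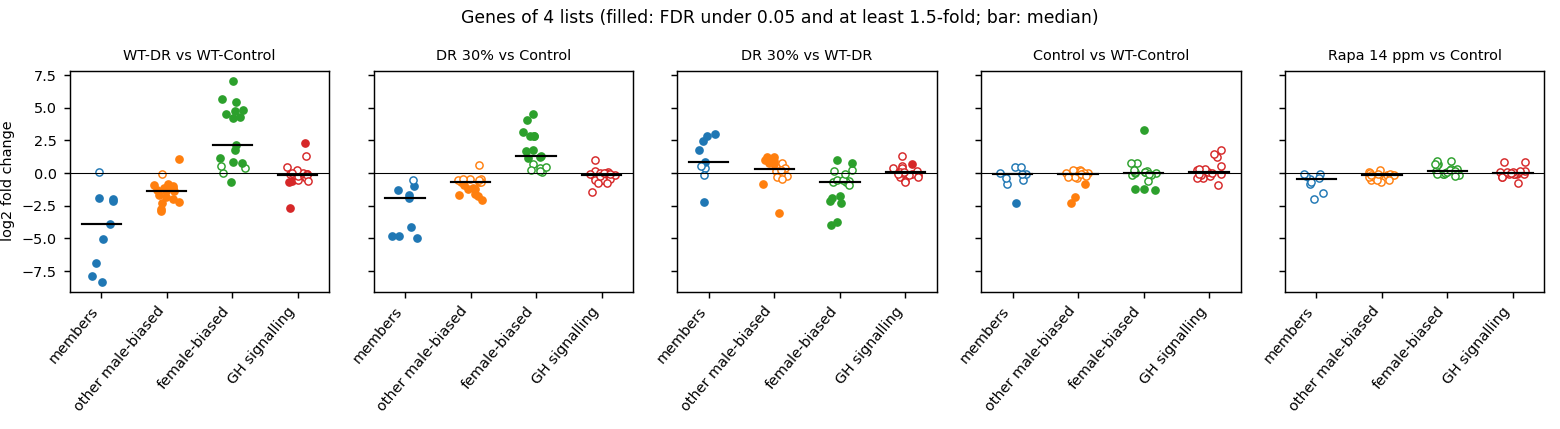
Log2 fold changes of the 9 genes, of 17 other male-biased genes, of 17 female-biased genes and of 18 growth hormone signalling genes in 5 comparisons, with filled dots for genes past both thresholds and bars for medians. In WT-DR vs WT-Control the medians are -3.91, -1.37, 2.15 and -0.13, and in Rapa 14 ppm vs Control no dot is filled.

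Of other male-biased genes, 17 of 24 were measured, and these genes, like the female-biased ones, were listed with earlier results of these arrays known, so that their counts are a description. With restriction 15 of 17 were lower and 1, Cyp2j9, was higher in WT (median -1.37), beside 2.63% of all probe sets lower and 3.41% higher. In the mutant 10 of 17 were lower (median -0.71), beside 0.948%. In DR 30% vs WT-DR 6 of 17 were higher (C8a, C9, Hsd3b2, Keg1, Sult2a8 and Ugt2b1) and 2 lower, Serpina12 and Gna14, beside 2.60% and 1.22%. The 3 of 17 called lower in Control than in WT-Control, beside 0.888%, were Serpina12, an adipokine of the serpin family (-2.32, SE 0.29, adjusted p = 1.4e-05), the G protein subunit Gna14 (-1.81, SE 0.25, adjusted p = 5.2e-05) and Cyp2u1 (-0.84, SE 0.16, adjusted p = 0.00117), whose Control mean of 4.15 was near background. None of 17 was called in Rapa 14 ppm vs Control. At an unadjusted p under 0.05 in limma were 3 of 17, beside 4360 of all 45141 probe sets.

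Of the female-biased genes 17 of 23 were measured. With restriction 13 of 17 were higher and 1, the neurotrophin receptor Ntrk2, was lower in WT (median 2.15), beside 3.41% of all probe sets higher, and 11 of 17 were higher in the mutant (median 1.28), beside 1.49%. In DR 30% vs WT-DR 6 were lower, among them Cux2, a transcription factor of female liver (-1.93, SE 0.40, adjusted p = 0.00226), and Cyp2b9 (-2.28, SE 0.58, adjusted p = 0.0101), and 2 were higher, Cyp3a41a and Prom1, beside 1.22% of all probe sets lower and 2.60% higher. In unrestricted mutants Sult1e1, the estrogen sulfotransferase, was higher (3.31, SE 0.51, adjusted p = 1.4e-04), with WT-Control mice near background at 4.23 to 4.53 and the size thus uncertain, beside 1.63% of probe sets higher. Lower were Ntrk2 (-1.26), the peroxisomal transporter Abcd2 (-1.21) and the acyl-CoA thioesterase Acot3 (-1.23), with adjusted p of 8.2e-04, 0.0218 and 0.0371 in limma. None of 17 was called in Rapa 14 ppm vs Control. At an unadjusted p under 0.05 in limma were 3 of 17, all higher, beside 4360 of all 45141 probe sets in either direction.

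Close relatives of the 10 genes did not all follow them. The neighbours of Hsd3b5 on the chromosome did so in part: Hsd3b2 was lower with restriction by 2.21 in WT and 1.71 in the mutant (log2) and higher in DR 30% than in WT-DR (0.74, SE 0.15, adjusted p = 0.00198). Hsd3b4 was higher in Control than in WT-Control (2.48, SE 0.35, adjusted p = 5.2e-05) and lower with restriction in the mutant (-1.95), with a difference of -0.74 (adjusted p = 0.144) in WT, where both groups lay near or below the array median (4.28 to 4.72 in WT-Control and 3.62 to 3.98 in WT-DR) and the sizes are uncertain. C8a, C8b and C9, the measured partners of C6 in the membrane attack complex, were all 3 lower with restriction in both genotypes and higher in DR 30% than in WT-DR, by 1.24, 1.18 and 1.21 (SE 0.21, 0.18 and 0.13). Serpina12, whose gene lies close to Serpina4-ps1 in the serpin cluster, was lower in the mutant in either feeding, by 2.32 unrestricted and 3.09 restricted.

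Other relatives were mixed. Hsd3b3, Hsd3b6 and Ugt2b1 were called lower with restriction in both genotypes, and Hsd3b7 and Slco1b2 in WT. Those below were not called or were higher with restriction. Of the relatives of Cyp2d9, none of 4 (Cyp2d10, Cyp2d22, Cyp2d26 and Cyp2d34) was called in limma in WT or mutant restriction, with differences between -0.31 and 0.30. At an unadjusted p under 0.05 were 3 in WT and 1 in the mutant, beside 14026 and 9907 of all 45141 probe sets. Slco1a4, a transporter of the same family as Slco1a1, was higher with restriction by 2.52 (SE 0.23) in WT and 1.99 (0.23) in the mutant. Cyp4a10, a fatty acid hydroxylase under PPARalpha, was higher as well, by 1.88 (SE 0.41) and 1.57 (0.41), opposite in direction to Cyp4a12a. None of 5 relatives of Elovl3 was called with restriction in either genotype. Of these 5, 3 in WT and 1 in the mutant had an unadjusted p under 0.05 in limma, beside the same 14026 and 9907 probe sets. Selenbp1 was higher in WT restriction by 0.62, where Selenbp2 was level.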

How the data were processed

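Liver RNA of 24 mice had been hybridised by the authors to Affymetrix mouse array plates, 1 array per mouse. The deposited values are log2 expression values that the authors made with RMA (background correction, quantile normalization and summary of probes, within the arrayanalysis.org pipeline), which ties each array to the others and compresses small differences near background. The version, and which arrays were normalized together, are not given in the sources used here. One set holds 45141 probe sets and a second, of the same arrays, 17306 genes, and precision is set by how many arrays there are. Of the probe sets, 28898 carried 1 gene symbol, 551 several and 15692 were unnamed here, and all stayed in the tests. Groups came from the titles of the records.

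All probe sets were fitted with limma 3.58.1 (R 4.3.3) as 5 group means with no covariate. Calls required a fold of 1.5 or more together with an FDR below 0.05 by Benjamini-Hochberg, as in the study's methods, and all adjusted p are from limma. The script was tested on simulated data. Replicates are separate mice. Plots and tables were made in Python 3.11.15.

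The genes and lists were chosen with earlier results of these data known. Besides the 10 genes, genes named were up to 6 per list with the smallest adjusted p in Control vs WT-Control, Ghr, Stat5b, Igf1, Socs2, Cish and Bcl6, the 10 genes most alike in profile, and relatives of each gene. Single genes beyond this rule (Slco1a4, Cyp4a10, Cux2, Cyp2b9, Hsd3b3, Hsd3b6, Hsd3b7, Slco1b2 and the genes behind small counts) were picked after their values were seen. The relative nearest in protein sequence was not determined. As alternatives, other fold thresholds, second probe sets, the per-gene values, fits of only the compared groups, median centring, quantile normalization applied again, robust estimation with a variance trend, and the omission of each mouse were tried.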

Additional observations from a re-analysis of the deposited data

Results flagged for a closer look

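In Hsd3b5 and Cyp4a12a every Control mouse lay below the WT-Control mean and every DR 30% mouse above the WT-DR mean. The group means alone had these signs in 6 genes. For Hsd3b5 the differences of mutant from WT were -0.56 and 2.96. For Cyp4a12a they were -0.86 and 2.86. The unrestricted difference was called in neither gene (limma adjusted p = 0.607 and 0.192). The difference between both effects, 3.52 (SE 0.75) and 3.72 (SE 0.53), contains the contrast that chose the genes and is given without a test. The restricted WT mice were at or near the array median in both genes.

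One mouse stood apart from its group. Selenbp2 was 12.08 in WT-DR mouse 422, with the next mouse at 12.29, a gap of 0.82 of the whole range of the group. It was 1 of 50 sets of mice searched, of which chance alone places about 1 in 20 apart.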

How the results depend on the processing

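The counts of called genes in DR 30% vs WT-DR, Rapa 14 ppm vs WT-Control and the 3 described comparisons stayed within 1.5 times under every alternative run. In Control vs WT-Control 2 genes were called in place of 1 with only the groups compared (Cyp4a12a added, adjusted p = 0.0497) and with no fold threshold (Selenbp2 added), and leaving out 1 mouse gave 1 to 2. In Rapa 14 ppm vs Control leaving out 1 mouse gave 0 to 1, the latter without Control mouse 327. The median difference of the restriction differences was 1.42 in place of 0.95 with the values per gene, which lack Selenbp2. Single genes changed sign only where the difference was close to 0: Cyp7b1 ran from -0.0925 to 0.0969 in Control vs WT-Control when 1 mouse was left out, highest without Control mouse 321, and C6 from -0.16 to 0.28 in Rapa 14 ppm vs WT-Control, lowest without Rapa 14 ppm mouse 535. Hsd3b5 was called in Rapa 14 ppm vs WT-Control when only these groups were fitted (adjusted p = 0.00185), and Cyp2d9 was not called in DR 30% vs WT-DR at a fold of 2. The tally of single-gene checks held, of the omissions of a mouse, only those with the lowest and highest difference per gene and tested comparison. In it 356 kept their direction and side of the threshold, 7 gained a call, 3 lost one and 2 changed sign. Over every omission, calls changed for Slco1a1 in DR 30% vs WT-DR (4 omissions) and Hsd3b5 in Rapa 14 ppm vs WT-Control (2). With 1 omission each they changed for Elovl3 in Rapa 14 ppm vs Control and for Cyp4a12a in Control and in Rapa 14 ppm vs WT-Control. No paired analysis was possible because the animal numbers of the groups do not overlap. Values at or below the array median limit the WT restriction differences of Hsd3b5, Cyp4a12a, Elovl3 (1 mouse) and Ugt2b38 and the mutant differences of Serpina4-ps1 and Ugt2b38.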
